A study of Rattus norvegicus with 9 samples.

Results

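The genes described here are 7 genes known for their expression in neutrophils: S100a8, S100a9, Fpr1, Fpr2, Csf3r, Cxcr2 and Retnlg. They were chosen by symbol, with earlier results of these data known, and were read from 2 deposited tables of cardiac gene values that together list 5760 genes. All 7 stand among the 4288 genes of the Cal and model table. The model and sham table, with 2458 genes, lists 4 of them, S100a8, S100a9, Fpr1 and Fpr2, so Csf3r, Cxcr2 and Retnlg are listed in 1 table only. Each table holds only genes with a deposited adjusted p below 0.05, so a gene that is not listed may still have been measured.

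Hearts of 9 male Sprague Dawley rats were sequenced as bulk tissue, 3 rats from each of 3 groups. In the model group, heart failure (HF) was induced by tying off the left anterior descending (LAD) coronary artery, and these rats then received distilled water. In the Cal group, rats with the same ligation were given calycosin (Cal), an isoflavone of Astragalus root, at 80 mg/kg per day by mouth. In the sham group, called control in the labels, the operation was done without inducing HF and distilled water was given. Dosing began 24 h after surgery and lasted 28 days. What limits the comparison as a model is that 3 rats stood for each group and that whole cardiac tissue, not sorted cells, was read.

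The headings of the tables conflict, which bears on every direction given here. Averaging the 3 sample columns headed Model of the Cal and model table gives the column headed as the Cal mean for 4288 of 4288 genes, and averaging those headed Cal gives the one headed as the model mean. For 2458 of 2458 genes of the other table, the average of 3 sample columns headed Cal is filed as the model mean, and no sample column there is headed Model. Libraries are therefore named Con, Cal and Model after their sample columns. If the mean columns carry the right names, the names Cal and Model below change places, so the libraries called Model would be the calycosin-treated rats. The values here cannot tell which naming is right.

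Neutrophils are short-lived phagocytes made in the bone marrow under the control of granulocyte colony-stimulating factor and drawn from blood into injured tissue, including infarcted myocardium, by chemokines, formyl peptides and complement fragments. S100a8 and S100a9 are calcium-binding proteins that pair as calprotectin and, once released, act as alarmins. Fpr1 and Fpr2 sense formylated peptides from bacteria and damaged mitochondria, Cxcr2 senses chemokines such as Cxcl1, Cxcl2 and Cxcl5, Csf3r is the receptor for granulocyte colony-stimulating factor (Csf3), and Retnlg is a secreted protein of the resistin family.

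The tables give mouse Ensembl genes and mouse positions, with no build named beside them, although the animals were rats. S100a8 (ENSMUSG00000056054) lies at chr3:90668978-90670035 on the plus strand and S100a9 (ENSMUSG00000056071) at chr3:90692632-90695721 on the minus strand, 22596 bases apart. Fpr1 (ENSMUSG00000045551, chr17:17876471-17883940, minus strand) and Fpr2 (ENSMUSG00000052270, chr17:17887824-17893952, plus strand) are 3883 bases apart. In neither pair does another listed gene lie between. Fpr1 and Fpr2 are related receptor genes in 1 cluster, and how the counting treated reads that match both is not given in the sources used here, so the split between them is uncertain. Csf3r (ENSMUSG00000028859) lies at chr4:126024550-126044440, Cxcr2 (ENSMUSG00000026180) at chr1:74153989-74161246 and Retnlg (ENSMUSG00000022651) at chr16:48872621-48874496, all on the plus strand.

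Rat promoter sequence, 250 bases before to 50 after the annotated start in RefSeq GRCr8, was found by symbol for 6 of the 7 genes. PU.1 and C/EBP proteins are transcription factors of the myeloid lineage, and their motifs were searched on both strands. The PU.1 core GAGGAA stood in 4 of 6 windows, against 27.6% of all 33469 rat promoter windows of this length. These 4 windows are shown 5′ to 3′ on the gene's strand because they share that motif, with capitals on GAGGAA or its reverse complement, on the C/EBP motif TTGCNNAA and on the TATA box TATAAA, on either strand. They lie at chr2:178490573-178490872 (S100a9, minus strand), chr1:67422471-67422770 (Fpr1, minus strand), chr1:67449387-67449686 (Fpr2, plus strand) and chr5:143582970-143583269 (Csf3r, plus strand).
S100a9: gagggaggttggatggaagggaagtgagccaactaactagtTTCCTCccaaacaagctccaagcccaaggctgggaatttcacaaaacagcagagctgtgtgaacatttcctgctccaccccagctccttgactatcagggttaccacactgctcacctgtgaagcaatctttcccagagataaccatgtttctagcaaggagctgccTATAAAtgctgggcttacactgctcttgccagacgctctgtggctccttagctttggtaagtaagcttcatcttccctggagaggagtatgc
Fpr1: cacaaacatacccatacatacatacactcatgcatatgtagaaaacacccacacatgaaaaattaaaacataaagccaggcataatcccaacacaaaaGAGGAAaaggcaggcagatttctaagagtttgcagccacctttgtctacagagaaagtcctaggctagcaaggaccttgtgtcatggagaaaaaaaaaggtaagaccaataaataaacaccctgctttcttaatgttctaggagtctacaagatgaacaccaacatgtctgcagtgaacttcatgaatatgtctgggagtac
Fpr2: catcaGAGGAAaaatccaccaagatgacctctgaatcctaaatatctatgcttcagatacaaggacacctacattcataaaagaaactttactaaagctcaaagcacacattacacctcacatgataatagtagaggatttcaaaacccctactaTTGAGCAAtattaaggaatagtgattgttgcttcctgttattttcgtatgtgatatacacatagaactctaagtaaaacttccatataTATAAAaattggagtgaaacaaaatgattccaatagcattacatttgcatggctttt
Csf3r: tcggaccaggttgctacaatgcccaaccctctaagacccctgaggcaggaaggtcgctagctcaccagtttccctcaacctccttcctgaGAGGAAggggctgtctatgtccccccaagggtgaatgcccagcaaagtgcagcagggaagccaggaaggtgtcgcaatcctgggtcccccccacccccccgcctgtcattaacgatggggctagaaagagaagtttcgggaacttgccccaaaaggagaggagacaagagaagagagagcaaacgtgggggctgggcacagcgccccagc

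The PU.1 core began at position -209 from the annotated start in S100a9, -152 in Fpr1, -245 in Fpr2 and -160 in Csf3r. The C/EBP motif stood in Fpr2 alone among the 6, at -95, against 10.6% of all windows. The TATA box stood in 2 of 6, S100a9 at -42 and Fpr2 at -7, against 14.2% of all. None of the 6 windows held the AP-1 motif TGANTCA (7.33% of all windows), an NF-kB motif (GGG, then NNT, then NNCC, 17.3%) or the STAT motif TTCNNNGAA (8.87%). A match describes letters in the window and is not a measured binding site. In Fpr1 the 50 bases after the annotated start begin with ATG and hold no stop codon in that frame. That start may therefore be the start of coding and not of transcription. The Fpr1 window, with the PU.1 core counted in it, may then lie outside the promoter.

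The first question was whether calycosin-treated and untreated HF hearts differed in these neutrophil genes. Each of the 7 genes had higher values in Model than in Cal libraries, by 5.10-fold (S100a9) to 19.0-fold (Cxcr2) in the means, and the other naming would make the calycosin-treated rats the higher group. In 7 of 7 genes the lowest Model library lay above the highest Cal library. All 7 passed the test, limma on log2(normalized count + 1) with a Benjamini-Hochberg adjusted p under 0.05 over the 4288 listed genes and a log2 fold change beyond 1. The table lists only genes that the authors' own test had passed, so the background is high: 31.6% of its genes were called higher in Model and 52.5% were higher in Model with no overlap. A normalized count is a gene's reads divided by 1 size factor per library.

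Reads on the listed genes ranged from 2860826 to 4659882 per library and table, total depth is unknown, and the fold changes, being on the log2(value + 1) scale, understate the change of low genes. The methods speak of 3 animals per group, and the p-values measure the spread between these 3 libraries. In bulk tissue, fewer neutrophils, less of their RNA per cell and a change in other cells that express these genes cannot be told apart. With 3 libraries against 3, a two-sided exact permutation test of any single gene cannot go below p = 0.1, and each of the 7 genes gave that value.

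Among the secreted proteins, S100a9 had normalized counts of 424, 394 and 376 in the 3 Model libraries and 31.4, 90.1 and 113 in the 3 Cal libraries. Its means were 398 ± 24.6 and 78.1 ± 42.0 (SD, n = 3 per group). The log2 fold change of Cal against Model was -2.52 ± 0.44 (SE), with a limma adjusted p of 0.00183. S100a8, its partner in calprotectin, had 235, 165 and 225 in Model and 12.0, 47.9 and 51.2 in Cal. The Model libraries of both genes lay close together, whereas Cal 1 lay far below Cal 2 and Cal 3. S100a8 averaged 208 ± 38.3 in Model and 37.0 ± 21.8 in Cal (log2 fold change -2.69 ± 0.52, adjusted p 0.00276). Leaving out Cal 1 moved the log2 fold change to -2.03 for S100a8, more than 1.5 times on the linear scale, and to -1.97 for S100a9, and both were still called.

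Retnlg had 54.0, 50.0 and 48.9 normalized counts in the Model libraries and 5.53, 8.45 and 15.4 in the Cal libraries. Retnlg had the narrowest spread of the 7 in Model, with a coefficient of variation (SD over mean) of 5.28%, and the smallest log2 fold change, -2.37 ± 0.38 (limma adjusted p 0.0013). The ratio of S100a9 to S100a8 ranged from 1.67 to 2.39 in the Model libraries and from 1.88 to 2.62 in the Cal libraries. These ranges overlap, so the pair differed between the groups in level while its ratio stayed within the spread between libraries.

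Among the formyl peptide receptors, Fpr2 had 300.2, 367 and 318 in the Model libraries and 21.2, 17.8 and 28.2 in the Cal libraries. Its groups were far apart and each was tight, and it had the lowest adjusted p of the 7 (log2 fold change -3.83 ± 0.23, limma adjusted p 8.9e-05, means 328 ± 34.6 and 22.4 ± 5.28). Fpr1 had 154, 159.8 and 133 in Model and 4.61, 24.4 and 12.8 in Cal. That is 131 to 143 reads in Model and 5 to 26 reads in Cal, where the Fpr1 spread was the widest of the 7 (coefficient of variation 71.3%). The log2 fold change of Fpr1 was -3.58 ± 0.51 (adjusted p 0.000903), or 10.7-fold in the means against 14.7-fold for Fpr2. The ratio of Fpr2 to Fpr1 ranged from 1.94 to 2.39 in Model and from 0.731 to 4.60 in Cal, where it rests on few reads.

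The chemokine receptor Cxcr2 had 41.0, 51.2 and 25.9 normalized counts in the Model libraries and 0.922, 1.88 and 3.42 in the Cal libraries. The Cal values stand for 1, 2 and 4 reads, so the 19.0-fold ratio of the means is imprecise (log2 fold change -3.75 ± 0.44, limma adjusted p 0.000471). Csf3r, which transmits the signal for neutrophil production and survival, had 254, 338 and 174 in Model and 26.8, 29.1 and 59.8 in Cal. Cxcr2 and Csf3r varied the most among the 7 in the Model libraries, with coefficients of variation of 32.4% and 32.0%, and in both genes Model 2 was the highest library and Model 3 the lowest. Csf3r averaged 255 ± 81.7 and 38.5 ± 18.4 (log2 fold change -2.74 ± 0.37, adjusted p 0.000757).

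**Figure D1:**
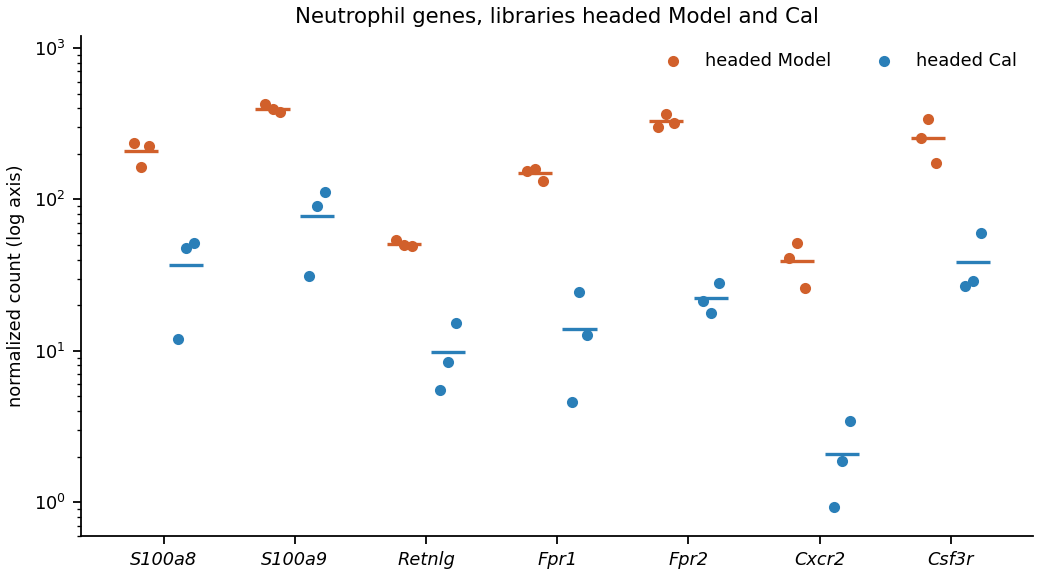
Normalized counts (log axis) of the 7 neutrophil genes in the 3 libraries headed Model and the 3 headed Cal; points are libraries and bars are group means. In every gene the Model points lie above the Cal points, from 19.0-fold in the means (Cxcr2) to 5.10-fold (S100a9).

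By the size of the log2 fold change, Fpr2, Cxcr2 and Fpr1 came first (-3.83 to -3.58), followed by Csf3r, S100a8, S100a9 and Retnlg (-2.74 to -2.37). The step between Fpr1 and Csf3r was 0.84, larger than the combined SE of the 2 values (0.63), and no other step between neighbours exceeded its combined SE. This order was not stable: with a pseudocount of 10 Cxcr2 (-2.00) came after Csf3r, S100a9 and S100a8, and without Cal 1 Fpr1 (-3.00 ± 0.34) and Csf3r (-2.53 ± 0.41) were within their combined error. Among all 4288 genes ordered from the lowest log2 fold change, Fpr2 stood at place 91 and Retnlg at place 439. Per kilobase of the deposited gene length, the Model means ran from 762 normalized counts (S100a9) and 300.3 (S100a8) through Fpr2 (253), Fpr1 (113), Retnlg (85.9) and Csf3r (70.8) to Cxcr2 (12.9). The Cal means ended with Csf3r (10.7), Fpr1 (10.5) and Cxcr2 (0.680), and S100a9 was again the highest. The lengths are those of mouse genes although the animals were rats, so these per-kilobase orders between genes are approximate.

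Cal 1 was the lowest Cal library in 6 of the 7 genes, all but Fpr2, and Cal 3 the highest in 6, all but Fpr1. Relative to the mean of Cal 2 and Cal 3, the Cal 1 level was 0.242 for S100a8, 0.248 for Fpr1, 0.309 for S100a9, 0.349 for Cxcr2, 0.465 for Retnlg and 0.602 for Csf3r. Fpr2 was at 0.922, near the median over all listed genes of 0.986. The summed normalized count of the 7 genes was 102, 219.6 and 284 in the Cal libraries and 1463, 1524 and 1302 in the Model libraries, so relative to their mean the Cal sums spread more widely than the Model sums.

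The second question was whether the genes differed from sham hearts. The 4 genes listed were higher in the libraries headed Cal than in those headed Con, and the mean column headed as model holds these same Cal libraries. In 4 of 4 genes the groups did not overlap, against 58.8% of the table's genes that were higher in Cal with no overlap. All 4 were called higher in Cal by limma, against 18.0% of the 2458 listed genes. Here too only genes that the authors' own test had passed are listed. The 4 genes were thus already selected for a difference, and Csf3r, Cxcr2 and Retnlg, not listed, could not be compared with Con. Both comparisons use the same 3 Cal libraries, whose reads were identical in the 2 tables for 986 of 986 shared genes.

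In the Con libraries these genes were near the limit of counting. S100a9 had 6.52, 20.6 and 12.1 normalized counts in Con and 35.1, 101 and 126 in Cal (13.1 ± 7.10 and 87.3 ± 46.8, 6.66-fold), with a log2 fold change of 2.59 ± 0.54 and a limma adjusted p of 0.00325. S100a8 had 6.52, 7.86 and 2.02 in Con and 13.4, 53.7 and 57.1 in Cal (log2 fold change 2.61 ± 0.64, adjusted p 0.00582, 7.57-fold). For both, the nearest pair of libraries across the groups was Cal 1 and the highest Con library, and without Cal 1 the log2 fold change rose to 3.27 for S100a8 and 3.14 for S100a9. Fpr2 had 3.73, 0.982 and 3.04 in Con and 23.7, 20.0 and 31.4 in Cal, a 9.70-fold difference of the means (log2 fold change 2.93 ± 0.47, adjusted p 0.00106).

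Fpr1 was at 0 reads in Con 1 and Con 2 and at 1 read in Con 3, against 5, 26 and 15 reads in the Cal libraries. The depth-corrected ratio of the 46 Cal reads to the 1 Con read was 47.7, with an exact 95% interval of 8.14 to 1924 that covers counting error only. The fitted log2 fold change of Fpr1 was 3.46 ± 0.71 (limma adjusted p 0.00297), a value that depends on the pseudocount: it ran from 1.21 with a pseudocount of 10 to 5.84 with 0.1, and without Cal 1 it was 4.04. The 4 log2 fold changes ran from 2.59 to 3.46, and no step between neighbours exceeded its combined SE. Each gene gave the smallest exact permutation p of 0.1 here too.

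Levels in the 3 groups were set side by side through the shared Cal libraries, since the tables were normalized separately, by multiplying values of the model and sham table by 0.894, and Model against Con was not tested. On that scale the means of S100a9 were 11.7 ± 6.35 in Con, 78.1 in Cal and 398 in Model, and those of S100a8 were 4.89 ± 2.73, 37.0 and 208. Fpr2 stood at 2.31 ± 1.28, 22.4 and 328, and Fpr1 at 0.302 ± 0.523, 13.9 and 149. All 4 genes followed the order Con, Cal, Model with no overlap between any of the groups, as did 279 of the 986 genes in both tables, or 28.3%. The Model mean was 34.0 times the Con mean for S100a9, 42.6 times for S100a8 and 142 times for Fpr2. Under the other naming, the order would read sham, model, Cal.

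**Figure D2:**
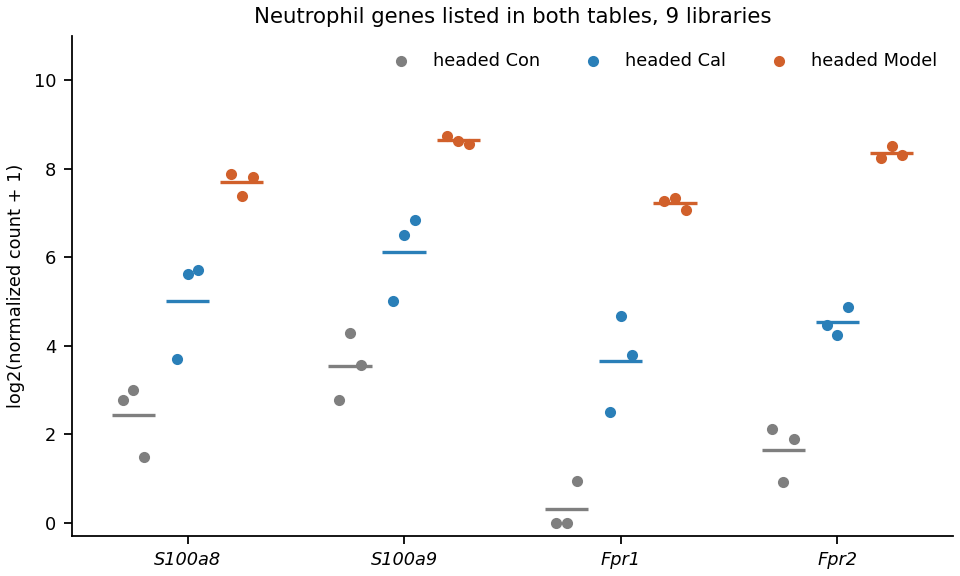
Log2(normalized count + 1) of the 4 genes listed in both tables, in the 3 Con, 3 Cal and 3 Model libraries, with Con values bridged to the scale of the Cal and model table; points are libraries and bars are means of the log2 values. S100a8, S100a9, Fpr1 and Fpr2 each step up from Con to Cal to Model without overlap.

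The ligands of Cxcr2 and Csf3r were then compared with their receptors. Of 13 ligands that attract neutrophils or drive their growth, 7 were in the Cal and model table, 3 called higher in Cal and 4 higher in Model, with a median log2 fold change of -1.16 against -0.52 over all listed genes. The ligands of Cxcr2 did not move alike. Cxcl1 had 5910, 10595 and 5328 normalized counts in the Model libraries and 18275, 19779 and 19100 in the Cal libraries (log2 fold change 1.46 ± 0.26, limma adjusted p 0.00213), and Cxcl2 was also higher in Cal (1.59 ± 0.26, adjusted p 0.0014). Cxcl1 and Cxcl2 thus ran opposite to Cxcr2.

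Cxcl5, another ligand of Cxcr2, had 4258, 7311 and 4331 in the Model libraries and 363, 599.8 and 646 in the Cal libraries, so it moved in the same direction as Cxcr2 (log2 fold change -3.30 ± 0.29, limma adjusted p 0.000201). Csf3, the ligand of Csf3r, had 1191, 2373 and 2070 in Model and 45.2, 189.6 and 134 in Cal (log2 fold change -4.09 ± 0.52, adjusted p 0.000593). Il17f, a cytokine that acts upstream of neutrophil recruitment, had 2 to 8 reads in the Model libraries and 0 in each Cal library. Its Model mean was 2.40 times a floor of 3 counts per library set for Cal. The few Model reads carry counting error of their own, so this ratio is not a lower limit. The complement gene C3 was called higher in Model (log2 fold change -1.16), a call lost under both other scalings, and the platelet chemokine gene Pf4 higher in Cal (1.04).

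Against Con, 8 ligands were listed and 6 were called, all higher in Cal, with a median log2 fold change of 5.97 (5.32 with genes at 0 in Con set to the floor) against 0.37 over all listed genes. Csf3 was at 0 in all 3 Con libraries, and its Cal mean was 47.0 times the floor of 3 counts per library. Cxcl1 was at 33.5, 84.5 and 29.4 in Con and 20439 to 22177 in Cal, and Cxcl2 at 2.02 to 8.84 in Con. On the bridged scale Cxcl1 and Cxcl2 followed the order Con, Model, Cal, while Cxcl5 and Csf3 followed the order Con, Cal, Model of the 4 neutrophil genes. Each of these 4 ligands was above Con in both of the other groups.

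**Figure D3:**
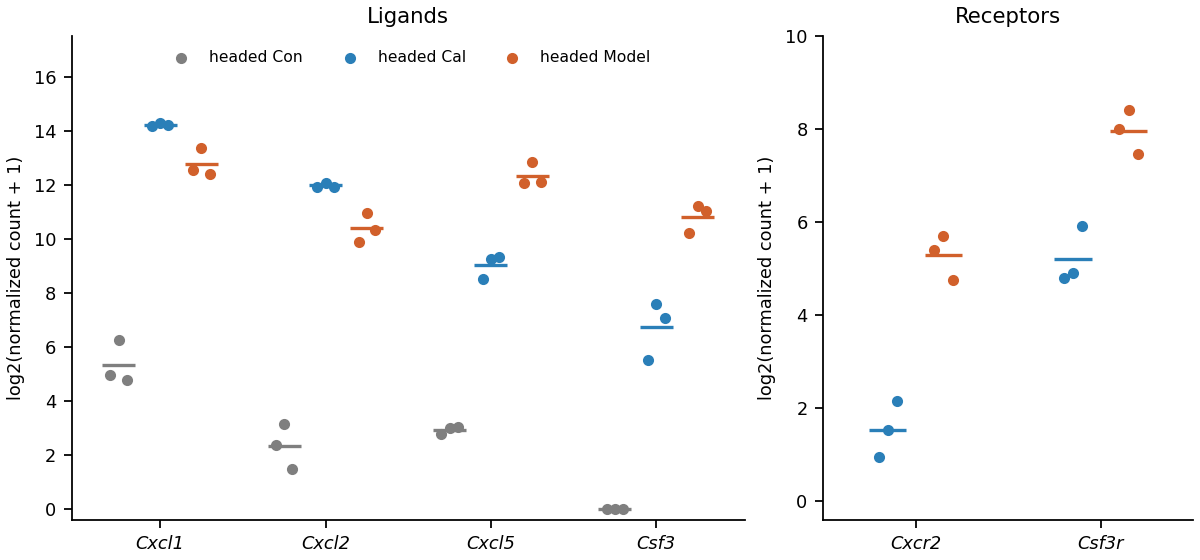
Log2(normalized count + 1) by library for the ligands Cxcl1, Cxcl2, Cxcl5 and Csf3 in Con, Cal and Model, with Con bridged, and for the receptors Cxcr2 and Csf3r in Cal and Model; points are libraries and bars are means of the log2 values. Cxcl5 and Csf3 are highest in Model like both receptors, whereas Cxcl1 and Cxcl2 are highest in Cal.

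Other neutrophil genes were read from lists, beside the 31.6% of all listed genes called higher in Model and the 28.4% called higher in Cal. Of 22 genes of granule and secreted proteins, 14 were in the Cal and model table, 12 called higher in Model, 1 higher in Cal and 1 not called, with a median log2 fold change of -2.64. Under quantile normalization 11 were called higher in Model. Lcn2, a granule protein that binds bacterial siderophores and is also made by stressed tissue cells, had 27246, 28032 and 24834 normalized counts in Model and 130.1, 379 and 295 in Cal (log2 fold change -6.77 ± 0.36, limma adjusted p 7.65e-05). Chil3, a chitinase-like protein, Ngp, a granule protein of immature neutrophils, and the collagenase Mmp8 had log2 fold changes of -5.42, -4.26 and -3.79. Mpo, the peroxidase of primary granules, had 2 to 7 reads in the Model libraries and 0 in each Cal library. Its Model mean was 1.61 times the floor of 3 counts per library. The 1 gene higher in Cal was the lysozyme gene Lyz2 (1.26), which is also in the macrophage list, and Anxa1, whose product signals through Fpr2, was not called (-0.69).

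Of 28 surface receptors, 17 were listed, 13 called higher in Model, 2 higher in Cal and 2 not called, with a median log2 fold change of -2.58. Among those called were Cd300lf, an inhibitory receptor (-5.21), the interleukin-1 decoy receptor Il1r2 (-3.66) and the IgG receptor Fcgr4 (-3.58). The 2 higher in Cal were the anaphylatoxin receptors C5ar1 (1.43 ± 0.16, limma adjusted p 0.00041) and C3ar1 (1.03 ± 0.28, adjusted p 0.0094), both present also on macrophages. The call of C3ar1 was lost under quantile normalization.

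All 3 listed NADPH oxidase subunits of 6 were called higher in Model, Cybb (-1.68), Ncf4 (-1.14) and Rac2 (-1.08), of which 1 was still called under median-ratio scaling. Of 9 transcription factors in the neutrophil list, 4 were listed and 2 were called, both higher in Model: Runx1 (-1.19) and Gfi1. Gfi1 was at 0 in each Cal library, and its Model mean was 2.18 times the floor of 3 counts per library. Runx1 was not called under median-ratio scaling, and Junb, not called here (0.74), was called higher in Cal under both other scalings. Of 14 other S100 genes 6 were listed, and S100b (2.21), S100a10 (1.11) and S100a6 (1.10) were called higher in Cal. The other 3, S100a11 (-0.90), S100a1 (-0.46, of the opposite sign under quantile normalization) and S100a16 (0.51), were not called. Within the resistin family, Retnla, a product of alternatively activated macrophages, was called higher in Cal (94.6 ± 41.3 against 23.9 ± 24.4 normalized counts, log2 fold change 2.34 ± 0.69, limma adjusted p 0.0125), opposite to Retnlg. Of 5 genes for reported S100a8 and S100a9 receptors only Tlr4 was listed, and it was not called (-0.85).

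Against Con, the calls in these lists were all higher in Cal on the deposited scale, beside 18.0% of all listed genes called higher in Cal and 10.9% higher in Con. Of 22 granule and secreted genes 3 were listed, all called higher in Cal: Ptx3 (6.93), Il1rn (5.09) and Lcn2 (2.45). The granule genes Mpo, Ngp and Mmp8 were not listed, so they could not be compared with Con. All 6 surface receptors listed were called higher in Cal, among them Clec4e (6.35), Tlr2 (3.69), Hcar2 (3.58) and Clec4d (2.56). Under quantile normalization 5 of those 6 were called. Of 6 transcription factors 4 were called higher in Cal, Junb (3.48), Cebpd (2.77), Cebpb (1.65) and Spi1 (1.14), which encodes PU.1. Under the other scalings Spi1 was not called, and under median-ratio scaling Cebpa was called lower in Cal (-1.10). Junb, Cebpd and Cebpb averaged 4816, 3495 and 1785 normalized counts in Cal, far above S100a9 (87.3). Which cells expressed them was not tested. The 3 NADPH oxidase subunits listed had a median of 0.74 and were not called. The S100a8 and S100a9 receptor Cd69 was called higher in Cal (4.04), and the S100 gene S100a10 was not called (0.88).

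**Figure D4:**
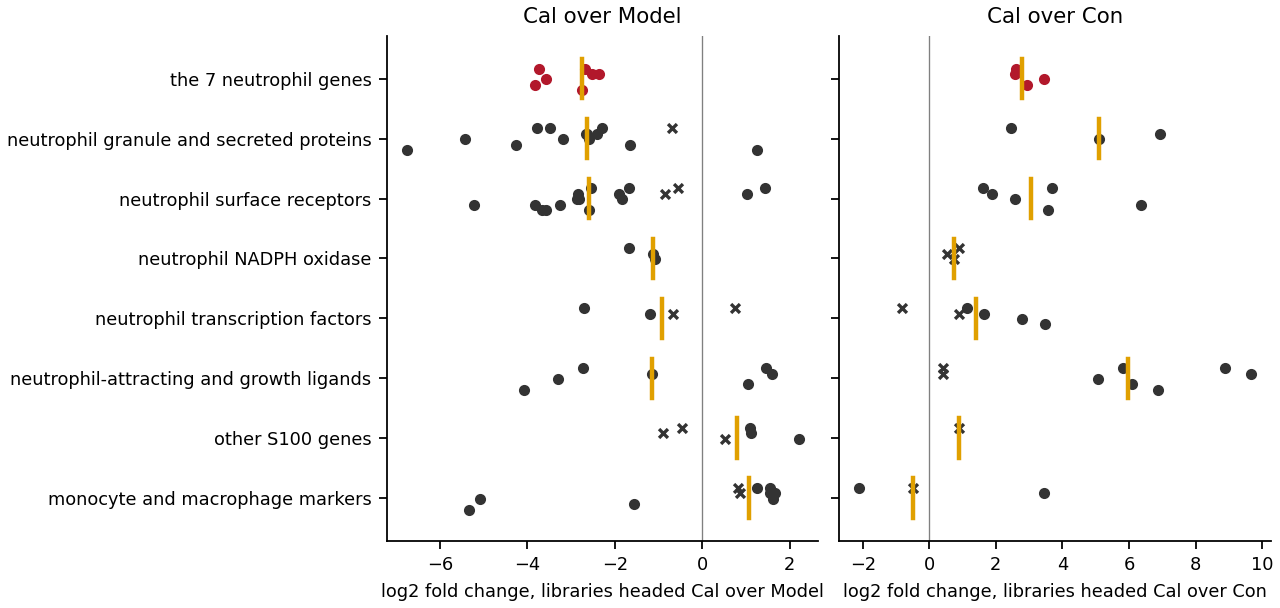
Log2 fold change of Cal over Model (left) and Cal over Con (right) for each listed gene of 8 gene lists, one list per line; circles are called genes, crosses are genes not called, red marks the 7 neutrophil genes and the gold bar is the list's median. For Cal over Model, granule and surface receptor genes lie mostly below 0, with medians of -2.64 and -2.58, while the monocyte and macrophage markers have a median of 1.06.

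Markers of other cells moved too, and their part in the results above was not tested. Of 15 monocyte and macrophage markers 10 were in the Cal and model table, 5 called higher in Cal (7 and 6 under the other scalings) and 3 higher in Model, and their summed normalized count was 8707 to 9743 in Cal and 3373 to 5169 in Model. Higher in Cal were the resident macrophage genes Cd163 (1.66), C1qc (1.62), C1qa (1.56) and Csf1r (1.56), with Lyz2. Higher in Model were Ly6c2 (-5.33), Plac8 (-5.09) and Ccr2 (-1.56), genes of inflammatory monocytes, of which Plac8 and Ly6c2 are also made by neutrophils or their precursors. Of 18 T, B and NK cell markers 2 were listed, Gzmb (-3.63) and Gzma (-2.49), both called higher in Model, with sums of 53.7 to 85.3 in Model and 4.61 to 6.57 in Cal.

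Of 9 mast cell and basophil markers 2 were listed, Hdc (-3.35) and Kit (-1.26), both called higher in Model, Kit not under median-ratio scaling. Hdc is also expressed by myeloid cells. Of 13 platelet and red cell markers 2 were listed, Pf4 called higher in Cal and Itga2b (-1.27) higher in Model, the latter not under median-ratio scaling. Of 14 cardiomyocyte markers only Nppa, a natriuretic peptide gene, was listed (-1.04), and it was not called under the other scalings. Against Con, 4 cardiomyocyte markers were listed and none was called, with log2 fold changes of 0.26 to 0.56 that under another scaling were at 0 for Myh6 and below 0 for Atp2a2 and Ryr2, and their summed normalized count was 481118 to 592895 in Con and 640629 to 658975 in Cal, so heart muscle RNA was abundant in those libraries. Of the monocyte and macrophage markers 3 were listed against Con, Cd14 called higher in Cal (3.44), Ccr2 higher in Con (-2.11) and Mrc1 not called (-0.49). Of 3 mast cell markers 1 was called, Kit higher in Con (-1.04), of 5 platelet and red cell markers 1, Hbb-bt higher in Cal (1.20), lost under the other scalings, and no T, B or NK cell marker was listed.

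The genes most like the neutrophil genes were ranked among 977 genes present in both tables, by Pearson r over the 9 libraries with the mean standardized log2 level of S100a8, S100a9, Fpr1 and Fpr2. The 5 closest were Tmem173 (STING, a sensor adaptor of innate immunity, r = 0.994), Mt1 (a metallothionein, 0.993), Serpina3f (a serine protease inhibitor, 0.993), Fam107a (0.993) and Slc10a6 (a transporter of sulfated steroids, 0.991). The 9 points fall in 3 groups of 3 libraries, so r mostly describes the order of the groups, and 296 of the 977 genes reached r of at least 0.9. Mt1 averaged 1533 in Con, 5841 in Cal and 39902 in Model, and Tmem173 averaged 141, 321 and 869.7. Neither is a gene of neutrophils alone.

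The direction and the call of the 7 genes were then recomputed under other processing. The log2 fold change of Cal against Model stayed between -4.00 and -3.39 for Fpr2, which varied least, and between -4.30 and -2.00 for Cxcr2, which varied most, with pseudocounts of 0.1 and 10 at the ends. Against Con, the highest adjusted p was 0.046, for Fpr1 under quantile normalization. Scaling on the listed genes moved the median log2 fold change of all genes by 0.30 (median ratio) and 0.42 (quantile) for Cal against Model, and by -0.28 and -0.42 for Cal against Con, smaller than the log2 fold change of any of the 7 genes.

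**Figure D5:**
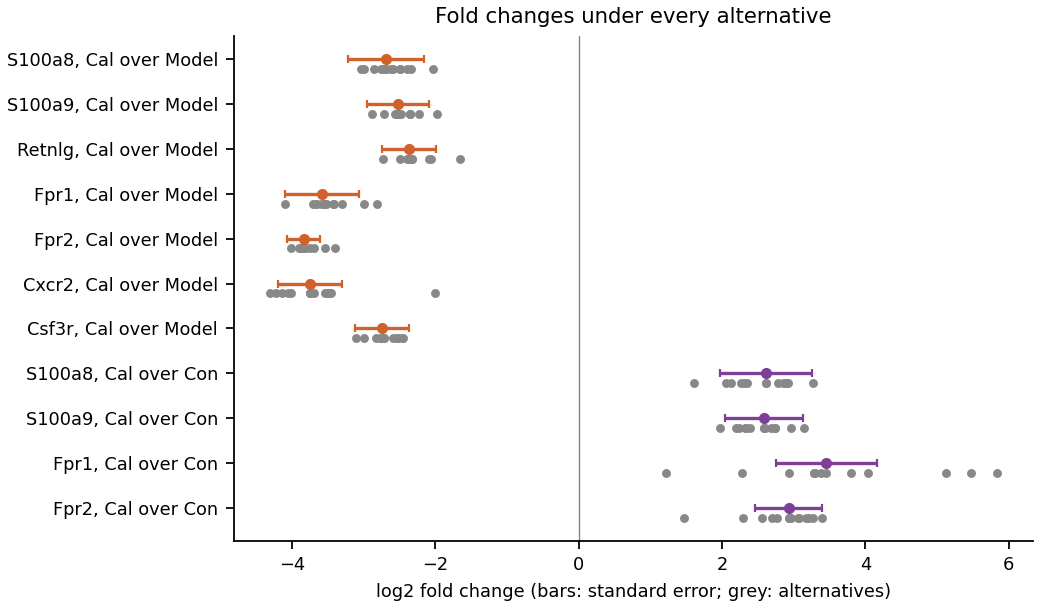
Log2 fold change of each neutrophil gene for Cal over Model and Cal over Con; coloured points with bars are the reported value and its standard error, and grey points are the alternatives. All points for Cal over Model lie below -1 and all for Cal over Con above 1, with Fpr1 over Con running from 1.21 to 5.84.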

How the data were processed

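Cardiac RNA of 9 rats (3 per group) was read from 2 deposited tables. The authors counted reads per gene and normalized with DESeq2. The labels' processing notes list Bowtie 0.12.2 and mouse builds, the paper's methods rat reference sequences, and the counting tool is not given in the sources used here. The deposited signal per library is a count divided by 1 size factor, and 100% of values were whole reads within 0.01 reads. The authors also deposited a log2 fold change, p-values, adjusted p-values and group means, and each table holds the genes whose deposited adjusted p is below 0.05. Their fold changes and p-values were not used, except that the means were set against the sample columns. The deposited gene length is in bases. No column of another sample was present.

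limma 3.58.1 in R 4.3.3 was fitted to log2(normalized count + 1) with a trended prior variance, separately per table, with Benjamini-Hochberg adjustment over the listed genes, and a gene was called where its adjusted p was below 0.05 and its log2 fold change exceeded 1 in size. Libraries were grouped by the headings of their sample columns. For this reason, what the file names call model against sham is a test of Cal-headed against Con-headed libraries. Exact permutation tests used scipy 1.17.1. The alternatives were edgeR 4.0.16 and DESeq2 1.42.0, both fitted to recovered reads, a pseudocount of 0.1 or 10, a minimum mean of 10, 2 other scalings, a replicate block, no fold change limit and each library left out. Replicate libraries had a chi-square of 10.9 to 80.7 per degree of freedom, well above counting noise, and none was a duplicate. On simulated data, limma recovered 99.5% of 200 genes changed by a log2 fold of 2 in the Cal and model table (4288 genes, 5 false calls) and 100% of 200 in the other (2458 genes, 0 false calls). The simulation used the same spread setting for every gene and left most genes unchanged. It changed only genes above a minimum mean over the libraries. Cxcr2 for Cal against Model, and S100a8, Fpr1 and Fpr2 against Con, did not reach that mean. Recovery of such low genes was not tested.

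The 7 genes and the gene lists were chosen with earlier results of these data known. Named genes are the 7 members, up to 4 called genes per list and table with the largest log2 fold change, and the 5 genes most like the members. Of the list genes so named, 1 is not reported here. Further list genes were named after their values were seen: Anxa1, Lyz2, Mpo, C3ar1, C5ar1, Cxcl1, C3, Pf4, Tlr4, C1qa, Csf1r, Ccr2, S100a10, Mrc1, Junb, Cebpa, S100a1, S100a11, S100a16, Atp2a2, Myh6 and Ryr2. Promoters came from RefSeq GRCr8, and motif positions count from the annotated start. Reads on unlisted genes were not used here, and the tables keep no total depth. PCR duplicates were not separable, so intervals and floors cover counting error only.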

Additional observations from a re-analysis of the deposited data

How the results depend on the processing

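The 7 neutrophil genes were called under every alternative run for Cal against Model. The 4 genes against Con were called under every alternative, except that with a mean of at least 10 Fpr1 dropped out and 3 of 3 were called. Over all listed genes, 2575 were called for Cal against Model and 712 for Cal against Con. Without the fold change limit 4272 and 2454 were called, as follows from lists that the authors had already selected by significance. On the recovered reads, edgeR called 2593 and 716 genes and DESeq2 2596 and 717. Leaving out each library gave 2344 to 2704 and 679 to 775. Median-ratio scaling turned the split of calls from 1219 higher and 1356 lower in Cal to 1646 and 1047, and against Con from 443 and 269 to 342 and 447. Quantile normalization gave 1393 and 1175, and 348 and 387.

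With the replicate number as a block, 2574 and 713 genes were called, and no call of the 7 genes changed. The numbers mark different rats, and deviations of same-numbered libraries correlated at 0.110, -0.119 and -0.0814 for Model and Cal and at -0.0235, -0.116 and -0.140 for Con and Cal, so the pairs share only a number. Low reads limit Cxcr2 and Fpr1 most: with a pseudocount of 10 the log2 fold change of Cxcr2 was -2.00 and that of Fpr1 against Con 1.21. Total depth is unknown.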
